A study of Homo sapiens with 2 samples.

Results

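The distal intergenic KDM1B peaks are the peaks narrower than 5 kb on chromosomes 1 to 22 and X whose midpoint fell outside every protein-coding and long noncoding RNA (lncRNA) gene and more than 50 kb from the nearest protein-coding gene. There were 2427 of them among 78504 listed peaks on these chromosomes (3.09%), or 3.14% of the 77391 peaks narrower than 5 kb (exact Clopper-Pearson 95% interval 3.01 to 3.26). The study mapped KDM1B by chromatin immunoprecipitation and sequencing (ChIP-seq) in the established cell line MDA-MB-231, which comes from a triple negative breast cancer. Both libraries came from cells that stably carry KDM1B with a 3xFLAG tag from the retroviral vector pOZ, so the tagged protein was made in addition to the cells' own. One group was the DNA precipitated with the anti-FLAG M2 antibody and the other was the input DNA of such cells, with 1 library in each of the 2 groups. No library from untagged cells was analysed here. With 1 library per group there was no replicate check and no p-value was computed, and the intervals below cover counting error only. They treat each peak as an independent count, so they can be too narrow where peaks cluster.

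KDM1B, also called LSD2, is a flavin-dependent histone demethylase that removes methyl groups from mono- and dimethylated lysine 4 of histone H3. It is best known for acting over the bodies of transcribed genes, and in growing oocytes it is needed to set up DNA methylation at imprinted loci. Monomethylated lysine 4 is also a mark of enhancers, the regulatory elements that often lie far from the genes they act on. A gene named below as nearest to a peak is named for its position only.

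No genome sequence was used here, so the sequence under the peaks is shown where RefSeq gives it for an annotated start. Of the 3506 lncRNA genes whose start lay over 50 kb from coding genes, 27 (0.770%, exact interval 0.508 to 1.12) had their start window touched by a distal peak, although the peak's midpoint lay outside the gene. The window runs from 250 bases before to 50 bases after the start. A set of 4 windows that lay wholly under a peak are printed (RefSeq, GRCh38.p14), with CpG dinucleotides in capitals, since CpG is the letter pair that DNA methyltransferases act on. The first pair had the highest log2 ratios of ChIP over input, and the last pair had the most CpGs.
LOC105371704: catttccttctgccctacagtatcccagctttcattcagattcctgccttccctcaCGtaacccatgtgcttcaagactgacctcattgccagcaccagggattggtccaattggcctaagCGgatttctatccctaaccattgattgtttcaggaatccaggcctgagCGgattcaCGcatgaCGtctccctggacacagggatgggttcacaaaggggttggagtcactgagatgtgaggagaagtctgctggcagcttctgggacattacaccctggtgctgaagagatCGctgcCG
MSRB3-AS1: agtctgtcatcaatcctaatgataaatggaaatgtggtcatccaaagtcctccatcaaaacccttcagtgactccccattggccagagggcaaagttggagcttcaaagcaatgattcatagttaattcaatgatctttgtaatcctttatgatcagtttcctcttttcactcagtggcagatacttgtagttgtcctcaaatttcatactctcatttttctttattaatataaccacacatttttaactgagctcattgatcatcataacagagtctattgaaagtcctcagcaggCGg
LOC101929540: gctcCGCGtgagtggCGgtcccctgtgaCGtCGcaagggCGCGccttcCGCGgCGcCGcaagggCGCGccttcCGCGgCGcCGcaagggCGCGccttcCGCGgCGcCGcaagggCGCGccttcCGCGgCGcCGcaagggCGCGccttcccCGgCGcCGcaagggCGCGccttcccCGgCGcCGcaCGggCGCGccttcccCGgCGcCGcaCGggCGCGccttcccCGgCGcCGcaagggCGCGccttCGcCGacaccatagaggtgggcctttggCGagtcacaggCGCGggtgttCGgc
MIR550A3HG: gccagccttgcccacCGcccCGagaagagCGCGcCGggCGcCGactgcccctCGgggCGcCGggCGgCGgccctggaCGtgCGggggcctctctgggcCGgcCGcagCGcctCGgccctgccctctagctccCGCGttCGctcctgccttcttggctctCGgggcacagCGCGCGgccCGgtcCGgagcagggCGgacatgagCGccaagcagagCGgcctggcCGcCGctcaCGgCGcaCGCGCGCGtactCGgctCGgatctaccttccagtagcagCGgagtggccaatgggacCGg
The window of LOC105371704 (chr17:27231749-27232048, minus strand) held 7 CpGs under a peak at log2 3.67, and that of MSRB3-AS1 (chr12:65642323-65642622, minus strand) held 1 CpG under a peak at 3.53. The window of LOC101929540 (chr10:38402915-38403214, plus strand) held 59 CpGs at 80.0% GC under a peak at 2.55. The window of MIR550A3HG, the host gene of a microRNA (chr7:29685089-29685388, minus strand), held 42 CpGs at 76.3% GC under a peak at 2.47. Taking 1 window per gene, the median CpG count was 9 in the 27 windows touched by distal peaks. It was 3 in all 3506 far lncRNA starts and 14 in the windows of all 27305 genes. Some of the 27 windows were covered only in part, down to 2 bases for LINC01271. A CpG or motif counted in them may therefore lie outside the peak. The GC box (GGGCGG, searched on both strands) was found in 44.4% of the 27 windows, in 9.93% of the far lncRNA starts and in 44.6% of all windows. The AP-1 motif (TGANTCA), which FOS and JUN proteins bind, was found in 25.9% (7 windows), 13.2% and 7.76% of the same sets. The CCAAT box (CCAAT) was in 51.9%, 38.9% and 35.7%, the TATA box (TATAAA) in 11.1%, 22.3% and 11.95%, and the E-box (CACGTG) in 0 of 27 windows, 3.91% and 7.43%. A match is a run of letters in a window and not a measured binding site.

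In all, 5 microRNA hairpins also touched distal peaks, and RefSeq's mature sequences for 4 of the arms are printed with the seed, bases 2 to 8, in capitals. They are shown as mature RNA sequences encoded under a distal peak.
hsa-miR-6080: uCUAGUGCgggcguucccg
hsa-miR-6724-5p: cUGGGCCCgcggcgggcgugggg
hsa-miR-10396a-3p: gGCCCCGGgcccucgaccggg
hsa-miR-10396b-3p: gGCCCCGGgcccucgaccggac
The 3p arms of miR-10396a and miR-10396b share the seed GCCCCGG. Their peaks stood at log2 2.58 and 3.03, the peak over MIR6724-2 at 2.09 and the peak over MIR6080 at 2.46. MIR10396B lies inside RNA45SN1, a copy of the 45S ribosomal RNA gene, and MIR6080 inside a run of pseudogenes near LRRC37A3. Near-identical copies of such sequence exist elsewhere in the genome, and the treatment of reads that match several copies was not given in the sources used here, so these positions are uncertain.

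Distal sequence was sparsely occupied. It held 2.65 peaks per Mb (exact Poisson 95% interval 2.54 to 2.76) over 916 Mb, against 20.6 (20.2 to 21.0) in intergenic sequence within 50 kb of a coding gene and 48.6 (48.2 to 49.0) inside coding genes, so the density was 18.4 times lower than in coding genes. Sequence inside lncRNA genes over 50 kb from coding genes held 4.95 per Mb (4.68 to 5.24), 1.87 times the distal density. Density fell at each step away from coding genes. It was 50.5 per Mb within 5 kb of a gene, 8.94 at 25 to 50 kb, 6.21 at 50 to 100 kb, 3.44 at 100 to 250 kb, 1.996 at 250 to 500 kb, 1.35 at 500 to 1000 kb and 0.335 (0.259 to 0.426) beyond 1000 kb. The intervals of neighbouring steps did not overlap. The last value rests on sequence that includes unassembled and satellite stretches: counting only 1 Mb bins that hold a gene or a peak it was 0.948, still below the 1.42 found at 500 to 1000 kb with the same bins. The 50 kb limit therefore cuts a gradient and not a gap in the data.

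**Figure D1:**
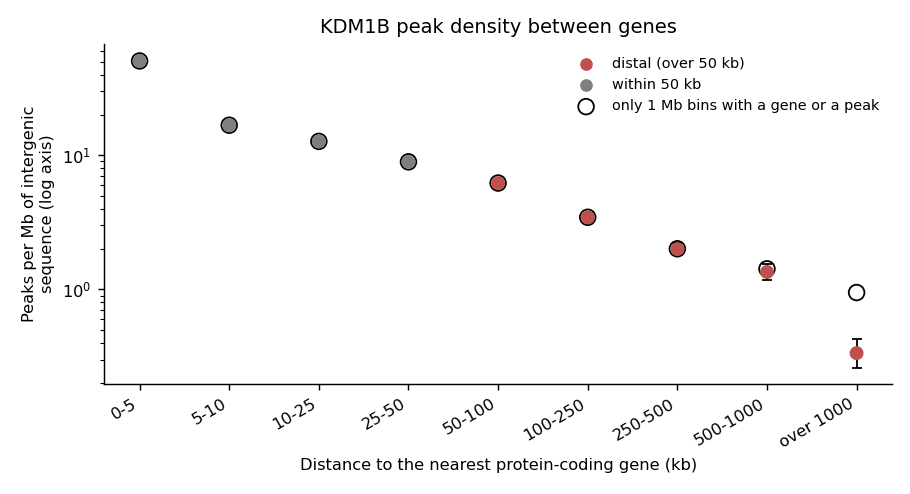
Peaks narrower than 5 kb per Mb of intergenic sequence (log axis) by distance to the nearest protein-coding gene in kb; filled points are all sequence with exact Poisson 95% intervals, red beyond 50 kb, and open circles use only 1 Mb bins with a gene or a peak. Density falls at each step, from 50.5 within 5 kb to 0.335 beyond 1000 kb.

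The median distance of a distal peak to the nearest coding gene was 119 kb (quartiles 73.0 and 251 kb). Beyond 250 kb there were 616 peaks and beyond 1 Mb there were 66. Nearness to lncRNA genes, which the choice of peaks used only to leave out those inside, followed the same gradient. Distal sequence within 2 kb of a lncRNA gene held 6.63 peaks per Mb (5.50 to 7.92), that at 2 to 10 kb 5.30, that at 10 to 50 kb 4.16 and that over 50 kb away 1.67 (1.57 to 1.78). The sequence over 50 kb from both gene types made up 66.0% of distal sequence and held 41.7% of the distal peaks. The peaks just inside the limit were at 50.01 kb from POTEM (log2 ratio 1.66), 50.13 kb from GARIN1A (2.75) and 50.15 kb from LRRC37A3 (2.55). Those just outside it were at 49.96 kb from PRSS23 (2.01), 49.94 kb from PKDCC (4.28) and 49.84 kb from METTL14 (2.66). The widest peaks kept were 4736 and 4475 bp near TNK2 and 4306 bp near KLRB1, and the 3 left out only for their width, of 6548 bp near POTEM, 7398 bp near TUBA3C and 7596 bp near TNK2, had log2 ratios of 2.73, 4.81 and 3.52.

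The deposited log2 ratios of ChIP over input, which are the authors' own values, had a higher median at distal peaks than in the other classes of peaks narrower than 5 kb. The median was 3.21 (quartiles 2.65 and 4.05), against 2.94 in intergenic sequence within 50 kb of a coding gene, 2.96 inside coding genes and 3.09 in lncRNA genes over 50 kb from coding genes. The 1113 peaks of 5 kb or wider had a median of 3.28. A log2 ratio above 4 was found at 615 distal peaks (25.3%, exact interval 23.6 to 27.1), against 12.3% of the other peaks narrower than 5 kb and 20.3% (18.1 to 22.6) of those in the far lncRNA genes. Distal peaks were also narrower, with a median width of 637 bp against 804 bp for the other peaks, and 17.3% had the smallest width in the list, 500 bp, against 8.29%. Peaks in the far lncRNA genes were close to them in both, with a median width of 649 bp and 14.5% at 500 bp. The classes overlapped over most of their range, as the cumulative curves of ratio and width show.

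**Figure D2:**
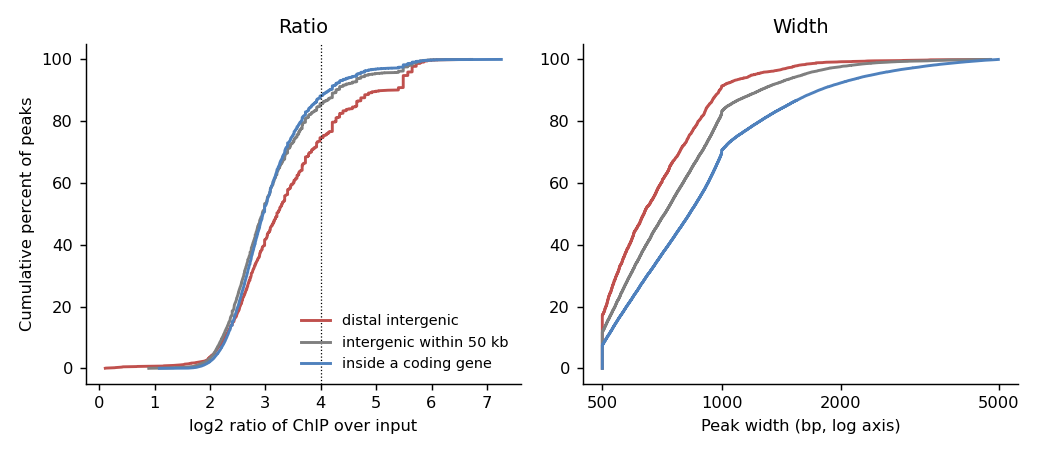
Cumulative percent of peaks narrower than 5 kb against the log2 ratio of ChIP over input (left, dotted line at 4) and against peak width in bp (right, log axis), for distal peaks, intergenic peaks within 50 kb of a coding gene and peaks inside coding genes. The distal curve lies to the right for the ratio, with a median of 3.21, and to the left for the width, with a median of 637 bp.

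The form of these ratios bears on how they read. The linear ratios in the list are built on a common step of 2.64, and part of the ratios stand at whole multiples of it. The step was chosen so that nearly all of the highest 1% of listed ratios are whole multiples. Whole multiples among the highest ratios are therefore no separate finding. A ratio of scaled read counts would take that form with a single input read, or with input reads that divide those of the ChIP evenly, but what the step stands for was not tested. Such ratios made up 582 of the distal peaks (24.0%, exact interval 22.3 to 25.7), against 12.2% of the other peaks narrower than 5 kb and 20.6% of those in the far lncRNA genes. Among the 419 distal peaks of 500 bp, 54.2% were whole multiples and the median log2 ratio was 4.21, while among the 557 wider than 800 and up to 1200 bp, 9.87% were and the median was 2.79. Across the 2427 distal peaks, Spearman's rho between width and log2 ratio was -0.44 and Pearson's r was -0.28, against -0.18 and -0.09 across the 74964 other peaks, all read from the same pair of libraries. A single value, log2 5.49 (17 steps), was shared by 95 distal peaks, 92 of them 500 bp wide, and by 757 listed peaks in all. Without whole multiples the distal median was 2.94, against 2.94 in the far lncRNA genes, 2.84 within 50 kb of a coding gene and 2.89 inside coding genes, and the difference from all other peaks shrank from 0.25 to 0.06. The read counts behind single ratios are unknown, so the part of low input counts in the higher ratios was not tested.

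With distance from coding genes the median log2 ratio was 3.05 at 50 to 100 kb, 3.30 at 100 to 250 kb, 3.30 at 250 to 500 kb, 3.35 at 500 to 1000 kb and 3.72 for the 66 peaks beyond 1000 kb. The share of whole multiples moved with it, from 19.3% at 50 to 100 kb to 30.4% at 500 to 1000 kb and 28.8% beyond. Without them the medians were 2.86, 3.08, 2.93, 3.08 and 3.24, which do not follow 1 order with distance.

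The 10 distal peaks with the highest ratios were all whole multiples, of 23 to 39 steps. Because the step was set on the highest 1% of listed ratios, this was close to fixed in advance for ratios this high. The highest, at chr2:145751678-145752741, reached log2 6.69 and lay 1232 kb from ZEB2, a repressor of epithelial genes, and 5.45 kb from a lncRNA gene. The next, at chr15:30734460-30735492, reached 6.53 and lay 63.5 kb from LOC101930434, inside the pseudogene LOC100288637. A peak 70.8 kb from PRR23E stood at 6.26. Peaks near USP24, which encodes a deubiquitinase, and PDE5A, the phosphodiesterase that breaks down cyclic GMP, both stood at 6.10, at 187 kb and 53.0 kb. The other 5 lay near WDFY3, an autophagy adaptor (6.05), SMAD1, a transducer of BMP signals (5.99), ATP5PO, a subunit of ATP synthase (5.99), SLC2A9, a urate transporter (5.93), and ASB7 (5.93). Of the 10, 6 had no other listed peak within 20 kb.

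At the other end, 17 of the 21 peaks narrower than 5 kb with a log2 ratio below 1 were distal. Of these, 8 lay on chromosome 1 between positions 125179308 and 143265114 and 6 on chromosome 5 between 48361953 and 49631494, both stretches around a centromere, where satellite repeats abound. The lowest was at chr1:125179308-125180539, with a log2 ratio of 0.11, 3717 kb from the nearest coding gene, and its neighbour at chr1:125182377-125183008 stood at 0.12. These are ratios of 1.08 and 1.09 over input. Of the 5 peaks farthest from coding genes, 3 lay on chromosome 1, the 2 lowest peaks just named (0.11 and 0.12) and 1 at chr1:124892911-124893430 (2.70), 1 on chromosome 22 at 4756 kb from OR11H1 (2.08), and 1 on chromosome 4 at 2401 kb from ARAP2 (4.72). The farthest peaks thus included the lowest ratios of the class as well as a high one.

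Distal peaks were more often alone than the other peaks narrower than 5 kb, most of which lay inside coding genes. Another listed peak lay within 10 kb of 968 (39.9%, exact interval 37.9 to 41.9), against 84.7% of the other peaks narrower than 5 kb, and the median gap to the nearest peak was 21316 bp against 1094 bp for the others. In the far lncRNA genes a neighbour lay within 10 kb of 46.0% (43.2 to 48.8), with a median gap of 12964 bp. Joining neighbouring distal peaks into runs left 1465 single peaks (60.4%) and 319 runs of 2 or more, of which 43 had at least 5 peaks and held 309 in all. Single peaks had a median log2 ratio of 3.57 and a median width of 595 bp, with 31.0% whole multiples. Peaks in runs of 2 to 4 had a median of 2.89 at 691 bp with 15.3% whole multiples, and those in runs of 5 or more had 2.71 at 840 bp with 9.06%. Clustered peaks were thus wider and lower in ratio than single ones.

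Of the 19 runs with at least 7 peaks, 17 overlapped a gene of another annotated type, mostly a pseudogene, which the rule did not bar. Overlap here counts the whole span of a run, with the sequence between its peaks. The share among shorter runs was not counted, so 17 of 19 is no trait of long runs. The longest run lay between NPIPB3 and METTL9 at chr16:21476000-21545872, where 18 peaks with log2 ratios of 1.72 to 2.98 crossed the pseudogenes SMG1P3 and SLC7A5P2. A run of 17 (1.99 to 4.57) lay over ZNF767P at chr7:149586100-149625370. Its span also held a cluster of transfer RNA genes, though few of its peaks overlapped one. A run of 13 (2.69 to 4.52) lay over HERC2P2 on chromosome 15, and 1 of 12 (1.27 to 5.57) over GUSBP1 on chromosome 5. A run of 10 (2.68 to 3.99) lay over LOC729218 on chromosome 4, and another of 10 (2.001 to 2.99), at chr6:11636056-11655062 between TMEM170B and ADTRP, overlapped no annotated gene of any type.

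Over the whole class, 312 distal peaks (12.9%) had their midpoint in a gene of another type, on 2.47% of distal sequence. Their density was 13.8 per Mb (12.3 to 15.4), against 2.37 (2.27 to 2.47) in distal sequence with no annotated gene. Transcribed pseudogenes, copies of genes that have lost their coding function but still give RNA, held 257 of these peaks at 24.4 per Mb (21.5 to 27.6), in 87 genes of which 17 had at least 5 peaks. Other pseudogenes held 54 at 6.56 per Mb. The most were 19 in ZNF767P (median log2 3.02), 16 in HERC2P2 (3.62), 11 in GUSBP1 (2.19), 10 in LOC729218 (3.38) and 9 in DUXAP8 (2.14). Several of the pseudogenes belong to families of similar copies (SMG1P on chromosome 16, HERC2P on chromosomes 15 and 16). The copy a read came from is therefore uncertain, and the treatment of such reads was not given. Peaks inside other gene types had a median log2 ratio of 2.99 and 16.3% whole multiples, those outside 3.26 and 25.1%. Other gene types thus stood out for density and not for height.

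Genes of the translation and splicing machinery also overlapped distal peaks. The counts here are of overlaps, since no midpoint lay in a transfer RNA or small nuclear RNA gene. The number of such genes in distal sequence was not counted, so these overlaps cannot be read as many or few. A total of 10 distal peaks overlapped 15 transfer RNA genes (log2 1.66 to 4.99). In the gap between CFAP126 and FCGR2A on chromosome 1, a run of 8 peaks (1.54 to 3.68) spanned 20.6 kb of a transfer RNA cluster. Not all of the 8 peaks overlapped a transfer RNA gene, and those that did stood at 1.66 to 2.22. A peak of 2431 bp there covered 4 such genes at 2.22. Another 5 peaks overlapped the ribosomal RNA genes RNA45SN1, RNA45SN2 and RNA45SN3 on chromosome 21, at 1.49 to 3.03. A further 3 overlapped small nuclear RNA genes on chromosome 17, at 1.97, 2.23 and 2.40, within a run of 7. The immunoglobulin kappa locus held 8, 7 of them in 1 run, at 2.34 to 3.32. Of these 8, 6 had their midpoint in LOC107985911, a transcribed pseudogene inside the locus. Apart from the transfer RNA peak at 4.99, these values lay below the upper quartile of the class (4.05). All of these genes are present in many similar copies, so their positions carry the same uncertainty.

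Distal peaks were found on all 23 chromosomes. Per Mb of distal sequence they were densest on chromosomes 20 (6.56, exact interval 5.44 to 7.85) and 17 (6.02, 4.84 to 7.40), followed by chromosome 2 (4.02), and sparsest on X (0.638, 0.453 to 0.872). The intervals of chromosomes 20 and 17 overlap each other but none of the rest, while that of X overlaps those of chromosomes 19 and 21. The distal sequence counted includes unassembled and satellite stretches, whose amount on each chromosome was not measured. The order of chromosomes therefore holds only for sequence counted in this way. As a share of the peaks of their chromosome they ran from 0.243% on gene-dense chromosome 19 (11 of 4520) to 6.44% on chromosome 13 (101 of 1568). The median log2 ratio was highest on X (4.21), where 46.2% were whole multiples, and lowest on chromosome 21 (2.58). Chromosomes 20, 16 and 11, with 11.7%, 9% and 13.2% whole multiples, had medians of 2.77, 2.83 and 2.79. On chromosome 21, with the lowest median, 29.6% of its 27 distal peaks were whole multiples, so the median did not follow that share on every chromosome. The copy number of each chromosome in these cells was not measured here, and its part in the densities was not tested.

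**Figure D3:**
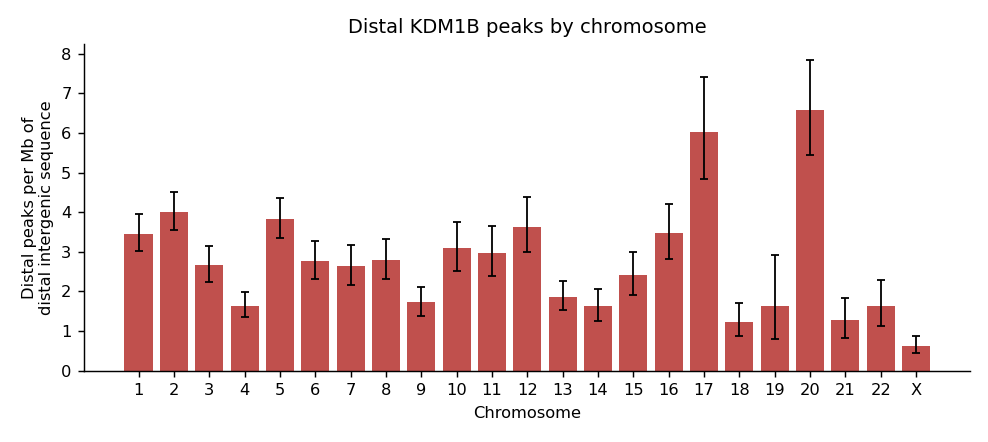
Distal peaks per Mb of distal intergenic sequence on chromosomes 1 to 22 and X, with exact Poisson 95% intervals. Chromosomes 20 (6.56) and 17 (6.02) stand above the rest, with unassembled stretches counted as sequence. X (0.638) is lowest, with an interval that overlaps those of chromosomes 19 and 21.

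The peaks were concentrated in a minority of the gaps between coding genes. Of 2757 gaps with sequence over 50 kb from both genes, 956 (34.7%) held a distal peak and 470 of them held 1. The 126 gaps with at least 5 held 42.7% of the class, and the 10 fullest held 182 peaks (7.50%).

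The fullest gap lay between FOXL1, a forkhead transcription factor, and C16orf95, where 25 peaks spread over 719 kb with log2 ratios of 1.97 to 3.94 (median 2.80) and no whole multiple. The gap between NYAP2 and IRS1, the insulin receptor substrate, held 24, of which 20 were nearer to IRS1. The most of any coding gene, these 20 included a group of 6 within 12.6 kb, whose log2 ratios in order along the chromosome were 3.25, 2.15, 2.44, 2.24, 2.40 and 2.35. The strongest peak of the gap, at 209 kb from IRS1, stood alone at 4.72 and was a whole multiple. Between TFAP2C, the AP-2 gamma factor of luminal and trophoblast cells, and BMP7, a secreted signal of the TGF-beta superfamily, there were 19 peaks. Of these, 7 lay 96.4 to 209 kb from TFAP2C, at 2.29 to 3.30, and 12 nearer to BMP7, 6 of them in a run of 16.0 kb at 1.91 to 3.57. Between MOCS2 and FST, which encodes the activin antagonist follistatin, there were 17 peaks at 1.52 to 3.12, the lowest median of these 4 gaps (2.53). In these 4 gaps the peaks gathered in groups along the gap, at medians of 2.53 to 2.80, below the median of the class.

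The gap between ETAA1, an activator of the ATR checkpoint kinase, and C1D held 14 peaks at 1.99 to 3.31. In the other 5 gaps runs of peaks overlapped pseudogenes that held peak midpoints. Run spans in the gaps of TFAP2C and BMP7 and of MOCS2 and FST also included pseudogenes, but no peak midpoint lay in those. Of the 5 gaps, ZNF746 and KRABD3 bounded 20 peaks (median 3.01), NPIPB3 and METTL9 18 (2.35), and GOLGA6L22 and NIPA1 17 (3.61). TPST1 and KCTD7 bounded 15 (3.57), and SMURF2 and LRRC37A3 13 (2.67). Several other gaps, such as MAX to FUT8 and ACTBL2 to PLK2, also held 13. That of SMURF2 and LRRC37A3 was kept for its higher density, 142 per Mb. The highest single peak of the 10 gaps lay between TPST1 and KCTD7, at chr7:66518111-66518651, with a log2 ratio of 5.72. By density, the 5 leading gaps with at least 5 peaks were TMEM170B to ADTRP with 333 per Mb (10 peaks in 0.03 Mb of sequence over 50 kb from both genes), NPIPB3 to METTL9 with 283, CDR2 to NPIPB5 with 276, CFAP126 to FCGR2A with 213 and TNK2 to TFRC, which encodes the transferrin receptor, with 172. The allowed sequence in these 5 gaps ran from 0.029 to 0.0636 Mb, so that short stretches weigh heavily in this order.

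**Figure D4:**
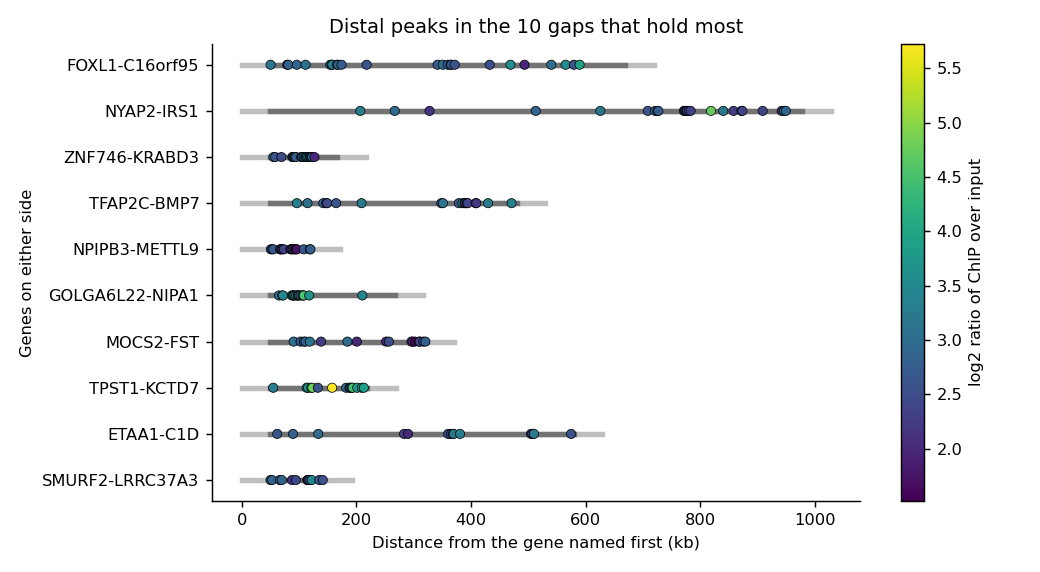
Distal peaks in the 10 gaps between coding genes that hold most (ties broken by density), by distance in kb from the gene named first. Bars span the gap, with the part over 50 kb from both genes darker, and point colour is the log2 ratio of ChIP over input. In the gaps of IRS1, BMP7 and FST the peaks gather in groups, and the highest point is the 5.72 peak between TPST1 and KCTD7.

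A distal peak had 1 of 1168 coding genes as its nearest, 5.85% of the 19974 in the table and 26.6% of the 4389 that had any sequence over 50 kb from genes on their side. Since such genes alone could be nearest, each gene group is read against the 26.6% and against a density of 2.65 per Mb over all of their sequence, or 4.59 (4.38 to 4.80) at 50 to 250 kb from the gene. A group can reach a high share by having long empty flanks. The density allows for the amount of sequence but not for its distance, and density falls with distance from genes. Over all distances, groups with short flanks can therefore read higher and groups with long flanks lower. The values at 50 to 250 kb limit this in part.

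Genes of AP-1, YAP and mesenchymal programmes stood above both. Of 53 genes, 20 had eligible sequence and 11 of these (55.0%) were nearest to a distal peak, at 9.23 peaks per Mb (6.31 to 13.0), and at 12.9 (7.99 to 19.7) within 250 kb. MYC, the growth-driving transcription factor, had 10 peaks at 51.4 to 632 kb (log2 2.51 to 4.34, median 2.80), with no whole multiple. Without MYC the group stood at 7.50 per Mb (4.70 to 11.4). TGFB2, a TGF-beta ligand, had 6 peaks (3.03 to 4.72), KLF6 had 4 (2.44 to 3.84), and JUN, a subunit of AP-1, had 3 (2.69, 3.04 and 5.40), the last a whole multiple. The group's count rests on few genes, and MYC alone gave 10 of its 32 peaks. Some of these peaks lay in runs, as near MYC and TGFB2, so the intervals, which take peaks as independent, can be too narrow.

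Developmental transcription factors were nearest to a distal peak in 32 of 66 eligible genes (48.5%), but their flanks are long and the density, 2.96 per Mb (2.32 to 3.72), was close to that of all genes. At 50 to 250 kb it was 3.92 (2.83 to 5.31), with the value of all genes inside the interval. SOX9, which directs cartilage and gonad formation, had 10 peaks at 161 to 709 kb (log2 2.22 to 4.28), and TFAP2C had the 7 described above. SOX11, a factor of neural development, had 4 (3.67 to 5.93), of which 3 were whole multiples.

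Genes of neuronal adhesion and axon guidance gave a high share with a low density. Of 74 eligible genes, 40 (54.1%) were nearest to a distal peak, yet the density was 1.37 per Mb (1.10 to 1.68), and 1.13 (0.688 to 1.74) at 50 to 250 kb, both below the value of all genes. CDH12, a neuronal cadherin, had 12 peaks (1.27 to 5.57), all of them in the run over the pseudogene GUSBP1 at 251 to 291 kb. Without CDH12 the group stood at 1.19 per Mb (0.943 to 1.49). CDH4 had 11 (2.09 to 5.49), GPC5, a glypican, 5 (2.22 to 3.67), and CDH18 4 (2.14 to 3.35). Without whole multiples 26 genes of this group were nearest to a distal peak.

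The 3 smaller groups gave few peaks. Among cytokines and chemokines, 2 of 13 eligible genes (15.4%) had any, CXCL12 with 2 (2.50 and 5.65) and IFNG with 1 (5.49), at 2.16 per Mb (0.445 to 6.31). Among luminal and hormone receptor genes, 5 of 13 (38.5%) had any, at 2.41 per Mb (1.04 to 4.74), led by the cyclin gene CCND1 with 3 (2.49, 2.65 and 2.72) and GATA3 with 2 (2.94 and 4.46). Among cell cycle and DNA replication genes, 4 of 7 (57.1%) had any, at 5.23 per Mb (2.10 to 10.8). They were CCND1 again, MKI67 with 2 (3.60 and 5.65), CENPF with 1 (3.16) and RFC3 with 1 (4.14). The intervals of all 3 groups include the value of all genes, and the last rests on 1.34 Mb of sequence, so no order among these groups can be read at these counts.

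**Figure D5:**
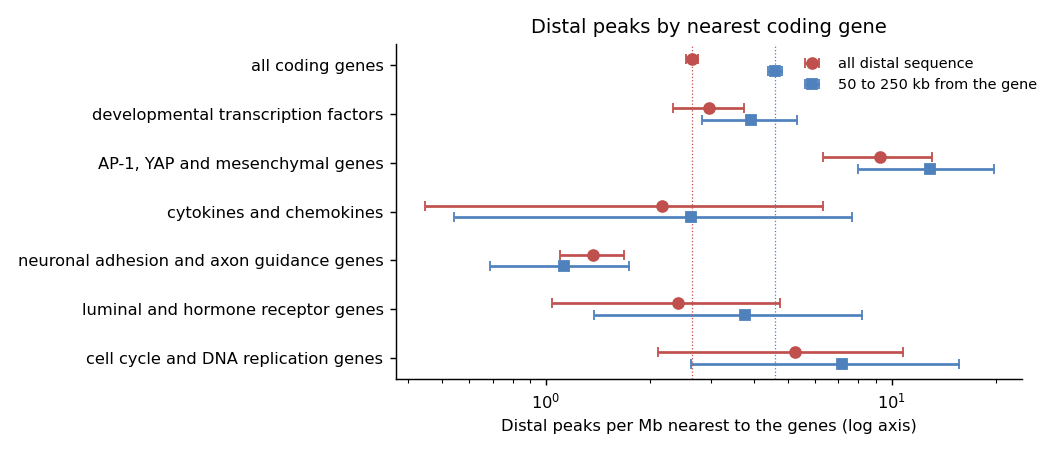
Distal peaks per Mb of distal sequence nearest to the genes of each group (log axis), over all distances (circles) and at 50 to 250 kb (squares), with exact Poisson 95% intervals; dotted lines mark all coding genes, at 2.65 and 4.59. AP-1, YAP and mesenchymal genes lie to the right at 9.23 and 12.9. Neuronal adhesion and axon guidance genes lie to the left at 1.37 and 1.13.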

How the data were processed

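DNA from 1 anti-FLAG ChIP library and 1 input library of MDA-MB-231 cells was compared by the submitters. Per the submitters' processing notes, Trim Galore 0.4.5, Bowtie2 2.2.9 and the build hg38 were used. How peaks were called and scaled and how reads with several matches were treated was not given in the sources used here. The deposited list holds the position and the authors' log2 ratio of ChIP over input for 78536 peaks, without read counts, so the depth behind each peak is unknown. That the values are log2 was read from the values. Positions are printed as deposited, with the first base of the count unknown.

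Peaks were placed by midpoint against the gene spans of RefSeq (GRCh38.p14), which has 19974 protein-coding and 18177 lncRNA genes on these chromosomes. The table also lists 544 genes after those of chromosome Y (135 coding and 227 lncRNA) whose positions appear to count from the start of a scaffold. They were kept, and leaving them out is an alternative chosen after seeing the data. Sequence classes were measured on a 100 bp grid. A ratio was taken as a whole multiple of the step of 2.64 within a tolerance of 1e-06. Distal peaks under 12.5 kb apart were joined into runs. Shares carry exact Clopper-Pearson and densities exact Poisson 95% intervals. Both treat peaks as independent, although 39.6% of distal peaks lay in runs. The code for distances, spacing, densities and the step was tested on simulated data with known answers. Python 3.11.15, NumPy 2.4.6, pandas 2.3.3, SciPy 1.17.1 and matplotlib 3.10.9 were used.

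The members, the gene lists and the naming rule were chosen with earlier results of these data known. Named were the 10 strongest and 5 farthest peaks, the 10 fullest and 5 densest gaps, the 5 longest runs, up to 4 genes per list and the 3 peaks on either side of each limit. Ties among the fullest gaps were broken by density. Other genes, pseudogenes, small RNA genes and printed windows were chosen after their values were seen. Peaks are not replicates, and nearest genes were not linked to peaks by any measurement. GC content and motifs of the peaks themselves were not analysed here, since no genome was used.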

Additional observations from a re-analysis of the deposited data

How the results depend on the processing

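Of the 11 alternatives, leaving out chromosome 2 (the chromosome with the most distal peaks), dropping the width limit, and leaving out the 544 genes with scaffold positions (2442 peaks, all 2427 included, chosen after seeing the data) moved no result beyond its interval or, for counts, 1.5 times. The share of distal peaks, 3.14% as reported, was 4.84% with a limit of 25 kb, 1.83% with 100 kb, 4.44% with peaks within 1 kb joined, 2.73% with all gene types barred, 3.81% among peaks at or above the median ratio and 2.73% without whole multiples. Density relative to sequence within 50 kb, 0.128 as reported, was 0.137, 0.1104, 0.149, 0.118, 0.159 and 0.115 under the same settings, 0.157 with whole peaks kept outside genes and 0.151 in 1 Mb bins with a gene or a peak. Peaks with a neighbour within 10 kb, 39.9% as reported, were 43.5%, 32.8%, 31.7%, 34.3%, 19.3% and 42.5% in the same order. The distal median log2 ratio was 3.32 at 100 kb, 3.28 joined, 3.81 in the upper part of the ratios and 2.94 without whole multiples, and its difference from other peaks was 0.37 at 100 kb and 0.061 without whole multiples. Whole multiples were 27.3% at 100 kb and 38.1% in the upper part of the ratios, where 17.2% of distal peaks lay within 10 kb of a lncRNA gene instead of 19.4%. Nearest coding genes numbered 1827 at 25 kb and 715 at 100 kb. AP-1, YAP and mesenchymal genes numbered 7 at 100 kb and 7 in the upper part, luminal genes 3 and 2, cytokines 1 with all gene types barred and 1 without whole multiples, and neuronal genes 26 without whole multiples. No value changed its sign. The causes were not tested, beyond the number of peaks each setting keeps.

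With 1 library per group, no depth and no p-values, the error of single ratios and the difference between ChIP and input were not tested. No paired analysis was possible because each group held 1 library.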
